A study of Bos taurus with 40 samples.

Results

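The genes described here code for subunits of potassium, sodium and calcium channels in Korean cattle. They were chosen by symbol alone, as every gene of the count tables whose symbol begins with KCN or CACN, or with SCN and a digit. This rule found 90 of the 13570 genes, of which 64 code for potassium, 17 for calcium and 9 for sodium channel subunits. All 90 had a read in some library and were therefore among the 13148 genes tested. The pore subunits CACNA1S and SCN4A, known from skeletal muscle, and CACNA1C, known from heart and smooth muscle, were not analysed here.

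The animals were 5 cows and 5 bulls of Korean cattle, a beef breed, slaughtered at more than 22 months of age. The labels name no treatment and no genotype. From each animal liver, abdominal fat, longissimus dorsi muscle (a muscle of the back) and pituitary gland were sequenced once, which gave 10 libraries per tissue, 5 female and 5 male. Cow 1 to cow 5 and bull 1 to bull 5 are names of animals, and equal numbers pair nothing across the sexes. The design asks how gene expression differs between the sexes within each tissue and over the 4 tissues, and it allows the tissues to be compared in the same animals.

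Ion channels let ions pass through the cell membrane and so set and change the voltage across it. Sodium channels start the action potential, potassium channels end it and hold the resting voltage, and calcium channels turn a voltage change into contraction or secretion. The pore subunit forms the path of the ion, while auxiliary subunits alter when the pore opens and how many pores reach the membrane. Hormone cells of the anterior pituitary fire action potentials and release hormone when calcium enters. In a skeletal muscle fibre the calcium channel serves as the voltage sensor that opens the calcium store. Hepatocytes and adipocytes are not counted among the excitable cells, although they hold channels that set their membrane voltage.

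The libraries held 5173092 to 19165864 reads on genes (median 10005607). Levels are given as CPM, the read count scaled to library size with TMM factors. Because the values carry no transcript length, the levels of a gene are compared between libraries and not with those of another gene. The defining markers were highest in the labelled tissue. The summed level of 5 hepatocyte genes was 115992 to 287394 CPM in liver and at most 171 CPM elsewhere, and that of 6 pituitary hormone genes 81663 to 284778 CPM in the pituitary gland and at most 385 CPM elsewhere. The sum of 5 muscle fibre genes was 81210 to 161150 CPM in muscle and at most 130 CPM elsewhere. The sum of 4 adipocyte genes was 6356 to 23990 CPM in fat, and it reached 1159 CPM in muscle. A list of 5 neural lobe and neuron genes summed to 256 to 351 CPM in the pituitary gland and at most 14.8 CPM elsewhere. Of these, the neural lobe hormones AVP and OXT did not exceed 1.23 CPM in any pituitary library, while SNAP25 stood there at 200 to 293 CPM, TUBB3 at 24.0 to 60.4 CPM and SYT1 at 4.71 to 31.1 CPM. The glial gene GFAP stood at 3.26 to 55.2 CPM in the pituitary gland and at most 4.14 CPM elsewhere. With S100B and SLC1A3 it summed to 72.4 to 176 CPM there, below the 376 to 1217 CPM of fat. A list of 3 Schwann cell and oligodendrocyte genes summed to 54.6 CPM in the pituitary gland of cow 1. In the other pituitary libraries that sum was 9.35 to 27.2 CPM, and in muscle 19.2 to 56.3 CPM. The part of the neural lobe, of neurons and of glia in the pituitary values was not tested. The liver library labelled bull 3 went against its label, with 0 reads of the Y-linked genes DDX3Y, USP9Y and ZFY and an XIST level of 1401 CPM, inside the range of the cows' livers (681 to 2179 CPM). The fat library labelled bull 5 held 1.8 CPM of USP9Y, against 28.1 to 34.1 CPM in the other bulls' fat, with XIST at 1.4 CPM. The libraries of cows 1 to 3 held a larger percentage of uniquely aligned reads outside genes than most others, for example 46.7 to 52.1% in the pituitary gland against 33.2 to 46.9% in the other 7 animals.

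The pituitary gland held the most enriched channel subunits of the 4 tissues. A gene was called enriched in a tissue when edgeR's quasi-likelihood test gave an adjusted p under 0.05 and a log2 fold change of at least 1 against each of the other 3 tissues. By this rule 35 of the 90 subunits (38.9%) were enriched in the pituitary gland, where 12.0% of all tested genes were. Muscle held 11 enriched subunits (12.2%, against 8.13% of all tested genes), fat 6 (6.67%, against 6.93%) and liver 4 (4.44%, against 10.1%). The remaining 34 subunits were enriched in no tissue. In fat the share of the subunits was near that of all genes, and the shares were not tested as a set. A lower level in a tissue can come from fewer cells of a type or from less RNA per cell, which cannot be told apart in whole tissue.

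**Figure D1:**
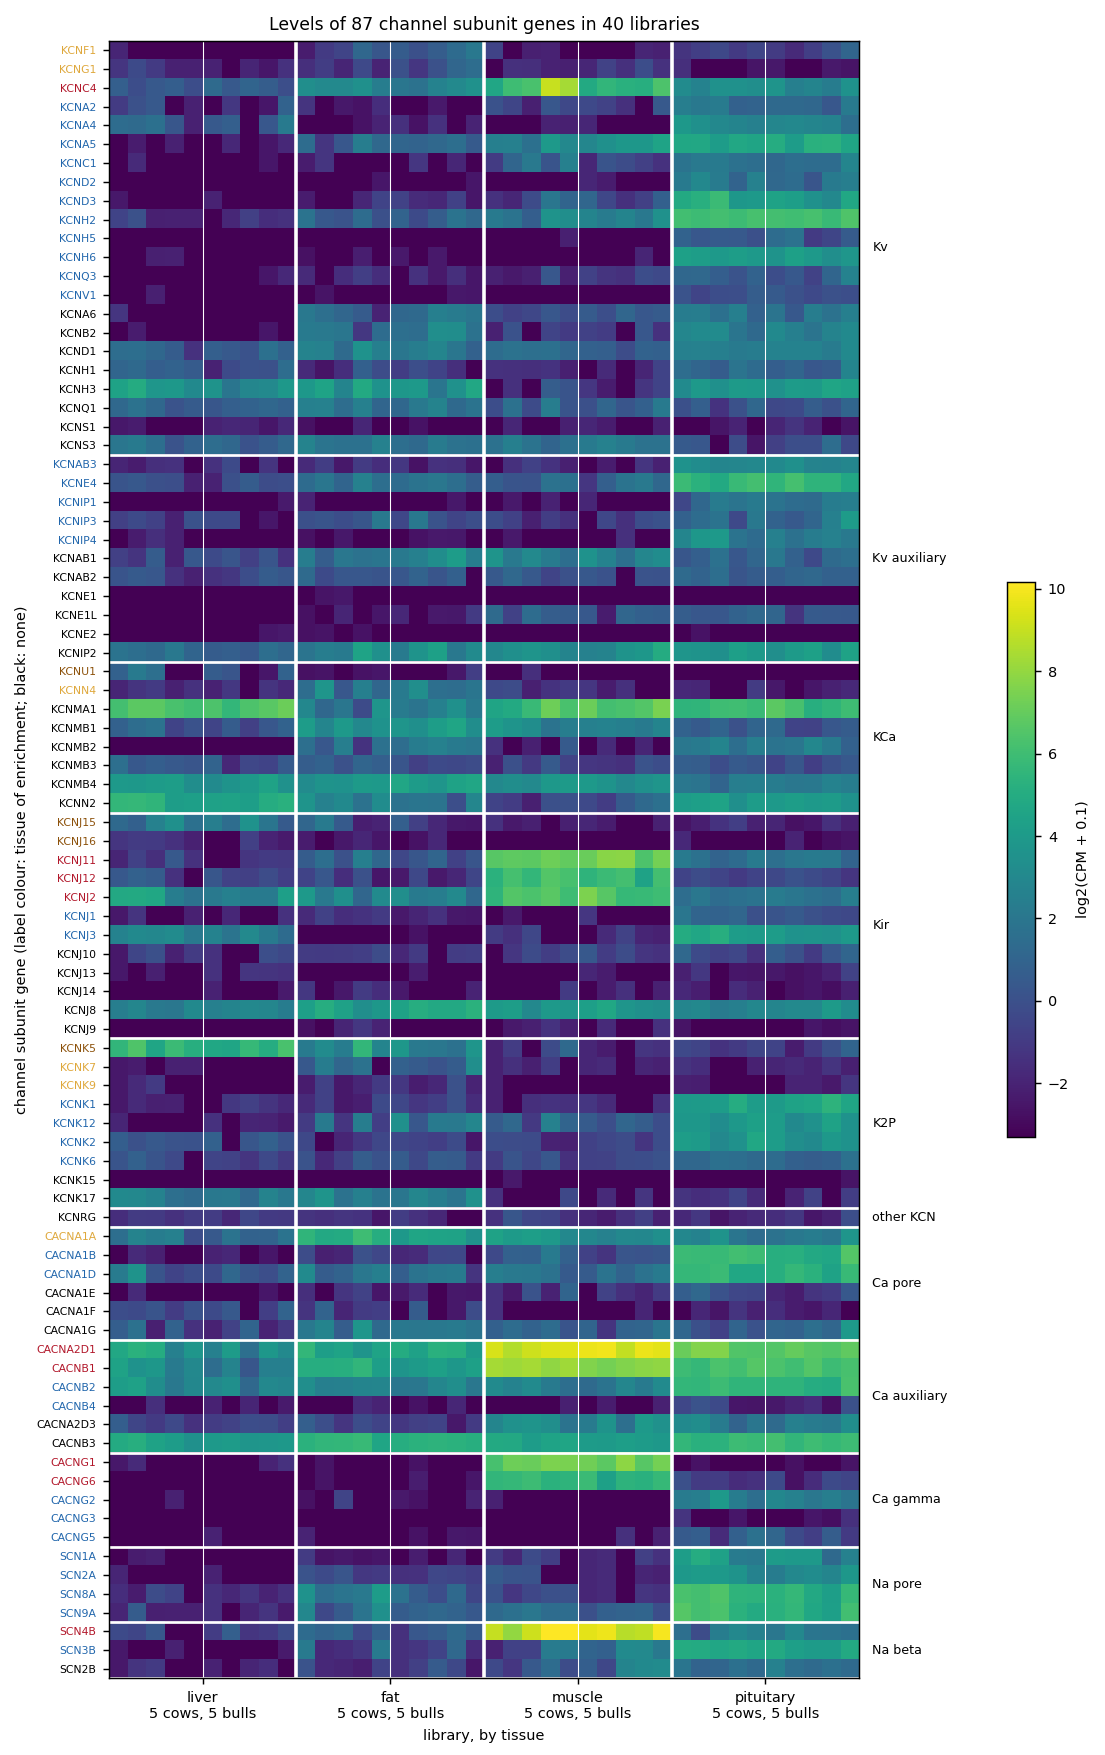
Level of 87 subunit genes (rows, grouped by structural class) in the 40 libraries (columns, grouped by tissue, cows left and bulls right in each), as log2 of CPM plus 0.1. Label colours give the tissue of enrichment, and the 34 blue labels mark subunits that stood higher in the pituitary gland.

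Libraries of the enriched tissue were then set against all others. In muscle, the lowest of the 10 libraries lay above the highest of the 30 libraries of the other tissues for 11 of the 11 enriched subunits. The same held for 23 of the 35 subunits enriched in the pituitary gland and for 1 of the 6 in fat (KCNN4). It held for none of the 4 subunits enriched in liver. Such separation follows in part from the enrichment rule, which used the same libraries. Its share among all enriched genes was not counted, so these numbers are not read as a trait of the subunits. A mean level of at least 1 CPM was reached by 63 subunits in the pituitary gland, 43 in fat, 40 in muscle and 29 in liver. These are 70.0%, 47.8%, 44.4% and 32.2% of the subunits, where 79.4%, 76.2%, 75.4% and 75.5% of all genes reached that level.

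The structural classes divided differently between the tissues. All 5 sodium pore subunits were enriched in the pituitary gland, and 2 of the 4 sodium beta subunits in muscle. Of the 23 voltage-gated potassium pore subunits, 11 were enriched in the pituitary gland, 2 in muscle, 2 in fat and none in liver. Their auxiliary subunits were enriched in the pituitary gland (5 of 11) or in no tissue (6 of 11). Inward rectifiers were spread over muscle (3 of 12), liver (2) and the pituitary gland (2). The calcium- and sodium-activated potassium subunits had 1 member in fat and 1 in liver, and the other 6 of 8 were enriched in no tissue. By ion, the pituitary gland held 22 of the 64 potassium, 7 of the 17 calcium and 6 of the 9 sodium channel subunits.

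**Figure D2:**
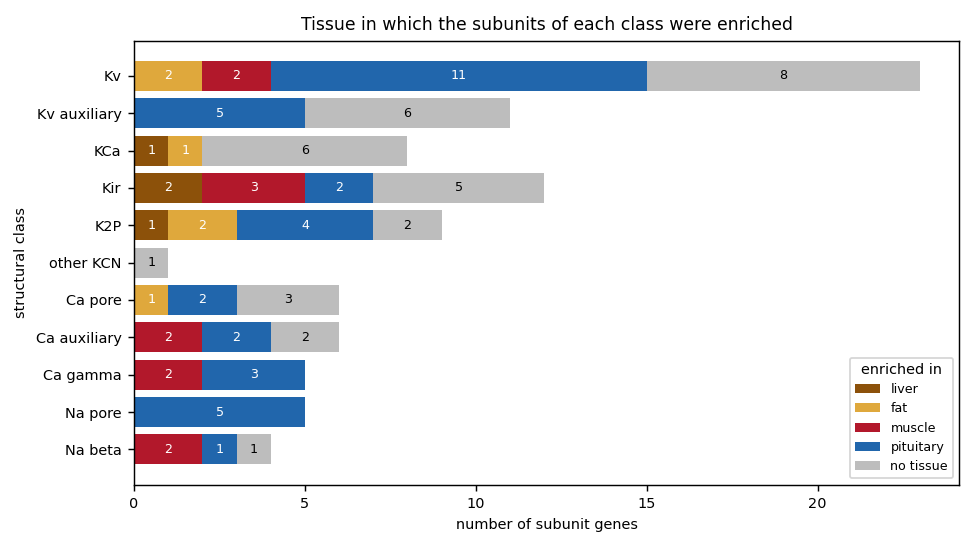
Number of subunit genes (x axis) of each structural class (y axis) that were enriched in each tissue or in none. Kv stands for voltage-gated potassium, KCa for calcium- or sodium-activated potassium, Kir for inward rectifier and K2P for two-pore-domain subunits, and the 5 sodium pore subunits form 1 blue bar.

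Sodium pore subunits known from neurons stood high in the pituitary gland. SCN9A ranged from 19.8 to 96.6 CPM in the 10 pituitary libraries (median 43.7) and did not exceed 10.9 CPM in the other 30. Its log2 fold change over fat, the nearest tissue, was 4.11 (SE 0.34, adjusted p = 7.81e-13). SCN8A ranged from 18.8 to 86.8 CPM (median 47.5), and its highest value elsewhere was 17.6 CPM in the fat of cow 5. The lowest pituitary value of SCN8A thus lay just above the highest fat value, and the log2 fold change over fat was 3.68 (SE 0.32, adjusted p = 3.90e-12). SCN1A spread from 2.34 to 32.3 CPM (median 15.4) and stayed at or below 0.762 CPM elsewhere. SCN2A ranged from 5.01 to 17.1 CPM (median 10.7), against at most 1.38 CPM in the other tissues. For each of these 4 genes the pituitary levels of cows 1, 2 and 3 were the 3 highest. Over the 47 subunits with their highest mean in the pituitary gland, 8 had cows 1 to 3 above the other 7 animals there, where 12.8% of all genes highest in this gland did. The same 3 libraries had the lowest sums of hormone genes, 81663 to 125246 CPM against 143609 to 284778 CPM, and their part in the order of the animals was not tested. SCN3B, a beta subunit of neuronal sodium channels, ranged from 16.7 to 31.4 CPM (median 27.4), against at most 8.73 CPM in muscle.

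Of the 6 calcium pore subunits, 2 were enriched in the pituitary gland. CACNA1B, the pore of the N-type channel of nerve terminals and endocrine cells, ranged from 25.3 to 93.3 CPM (median 55.3) in the pituitary gland and from 0.315 to 4.58 CPM in muscle, the nearest tissue. Its log2 fold change over muscle was 5.26 (SE 0.35, adjusted p = 6.87e-16). The highest value, 93.3 CPM, came from bull 5, and the other 4 bulls lay between 25.3 and 36.9 CPM. CACNA1D, the pore of an L-type channel that opens at low voltage, ranged from 22.2 to 59.4 CPM (median 44.7), with a log2 fold change over fat of 3.61 (SE 0.40, adjusted p = 1.59e-09). Its highest value outside the pituitary gland was 12.4 CPM, in the liver of cow 2. Among the beta subunits, which bring the pore to the membrane, CACNB2 was the enriched one with many reads, at 30.8 to 77.5 CPM (median 45.8) against at most 21.4 CPM elsewhere. CACNB4 was also called, but from 61 pituitary reads, with values up to 1.001 CPM that overlapped the other tissues.

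Of the 5 gamma subunit genes, 3 belonged to the pituitary gland and 2 to muscle. CACNG2, known as stargazin, which carries AMPA receptors to the synapse, ranged from 2.87 to 15.9 CPM (median 5.11) in the pituitary gland and reached 0.574 CPM at most elsewhere. Its relative CACNG5 had 202 pituitary reads and a range of 0.217 to 3.14 CPM. CACNG3 had 12 reads, and these were all in the pituitary gland. Against a floor of 3 reads over the 10 liver libraries its level was at least 2.20-fold higher, and its call was lost without cow 1, cow 4, bull 1, bull 3, bull 4 or bull 5.

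KCNH6 and KCNH2 code for ERG channels, which hold the resting voltage of endocrine cells and end long action potentials. KCNH6 ranged from 10.3 to 20.4 CPM (median 15.3), with 2479 reads in the pituitary gland and 8 in the other 3 tissues together. Its log2 fold change over fat was 8.44 (SE 0.58, adjusted p = 3.98e-21). KCNH2 ranged from 56.2 to 88.7 CPM (median 68.7) and reached 12.3 CPM at most elsewhere, in muscle. It was the steadiest of the enriched subunits between animals, with a coefficient of variation of 13.4% over the 10 pituitary libraries. KCNH5, of the related EAG family, had 235 pituitary reads and 1 read in muscle, a ratio of 110 (95% counting interval 19.5 to 4347).

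The Kv4 channels carry a fast inactivating current, and KChIP proteins bind them and speed their recovery. The pore gene KCND3 ranged from 7.89 to 59.3 CPM (median 20.3) in the pituitary gland, and KCND2 from 1.07 to 7.72 CPM (median 4.48). KCND2 had 658 pituitary reads and 2 in muscle, which gives a ratio of 153 (95% counting interval 42.3 to 1270). The third pore gene, KCND1, was enriched in no tissue and stood at 4.68 to 8.28 CPM in the pituitary gland and 1.70 to 11.8 CPM in fat. The KChIP gene KCNIP4 ranged from 2.53 to 15.7 CPM (median 5.39), with a log2 fold change over liver of 6.88 (SE 0.76, adjusted p = 6.78e-15). KCNIP1 had 544 pituitary reads and 3 in muscle (ratio 84.6, 95% counting interval 28.8 to 411). KCNIP3 passed with a log2 fold change of 1.34 over fat (SE 0.49, adjusted p = 0.0182), with a pituitary median of 2.32 CPM and 17.0 CPM in bull 5, and its call was lost without bull 4 or bull 5. KCNIP2 was spread over fat, muscle and the pituitary gland (medians 6.93, 10.3 and 14.3 CPM) and low in liver (2.19 CPM). DPP6, a partner of Kv4 channels outside the symbol rule, ranged from 54.2 to 91.8 CPM in the pituitary gland and stayed at or below 1.39 CPM elsewhere.

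Other potassium subunits of the pituitary gland included auxiliary, two-pore-domain and G protein-gated ones. KCNE4, an auxiliary subunit that inhibits some voltage-gated channels, ranged from 27.7 to 73.7 CPM (median 44.9), against at most 6.03 CPM elsewhere. KCNAB3, a beta subunit, ranged from 6.26 to 11.8 CPM (median 7.53) and did not exceed 0.716 CPM in the other tissues. KCNK1, a leak channel, ranged from 15.0 to 42.3 CPM (median 19.5), with a log2 fold change over fat of 5.76 (SE 0.33, adjusted p = 8.41e-18). KCNK2, a leak channel that opens on stretch, had a pituitary median of 13.2 CPM and a log2 fold change over liver of 3.62 (SE 0.35, adjusted p = 1.82e-11). KCNJ3, a channel subunit opened by G proteins, had medians of 16.9 CPM in the pituitary gland and 6.18 CPM in liver, with 1 read in fat. KCNA5 passed less widely, at 17.4 to 40.3 CPM in the pituitary gland and 3.05 to 23.1 CPM in muscle (log2 fold change 1.40, SE 0.30, adjusted p = 9.83e-05). The remaining 8 potassium genes enriched here were KCNA2, KCNA4, KCNC1, KCNQ3, KCNV1, KCNJ1, KCNK6 and KCNK12, with pituitary medians of 0.883 to 14.1 CPM. Except for KCNV1 and KCNJ1, their pituitary values overlapped those of other tissues. For KCNC1 the lowest pituitary value was 2.18 CPM and the highest elsewhere 5.78 CPM. The calls of KCNQ3, KCNV1 and KCNJ1 were lost under filterByExpr.

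**Figure D3:**
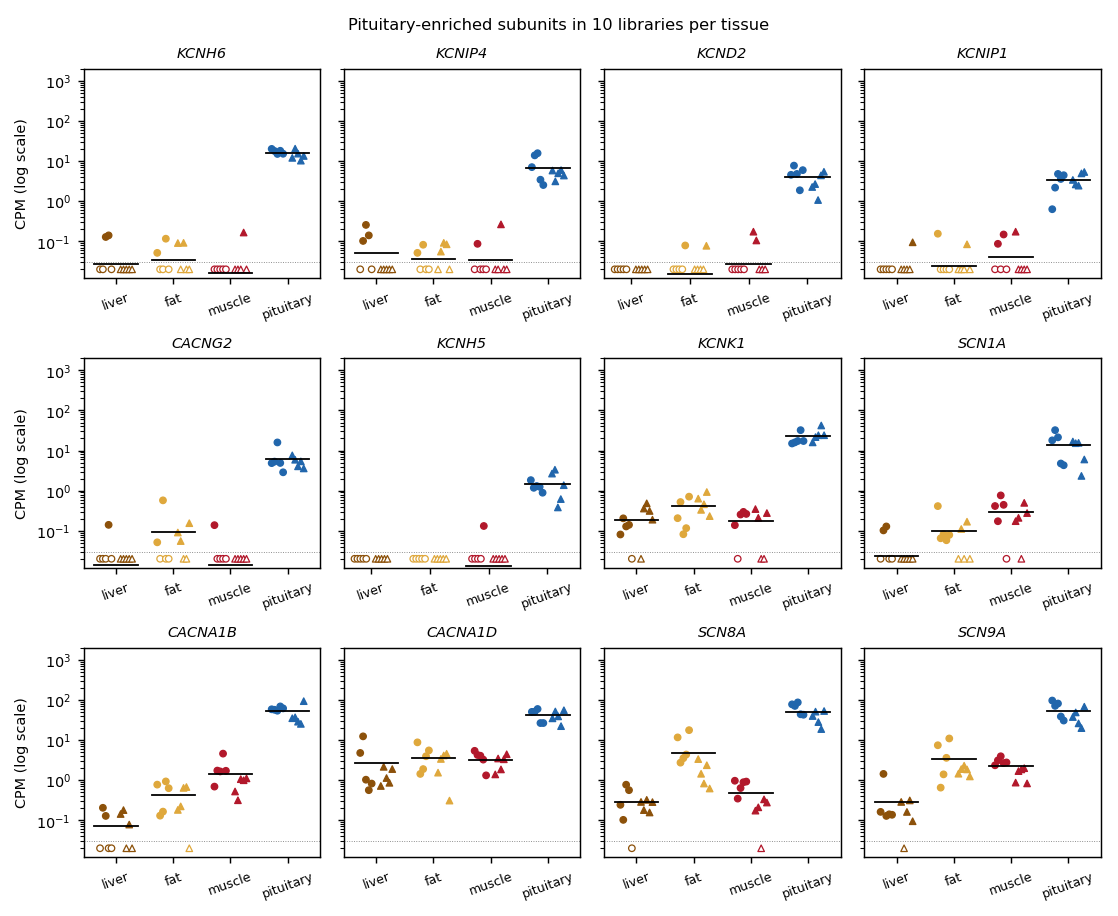
CPM on a log axis in 10 libraries per tissue for the 8 subunits with the widest separation in the pituitary gland and for 4 further calcium and sodium pore subunits. Circles are cows, triangles bulls, black bars tissue means (not drawn where they fall under the axis), and open symbols under the dotted line stand for 0 reads, so that KCNH6 lies between 10.3 and 20.4 CPM in the pituitary gland and at or near 0 elsewhere.

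CACNG1, the gamma subunit of the skeletal muscle calcium channel, ranged from 76.4 to 236 CPM in the 10 muscle libraries (median 151). It had 10587 reads there and 13 in the other 30 libraries, and its log2 fold change over liver was 10.53 (SE 0.51, adjusted p = 5.31e-26). CACNG6, a close relative, ranged from 20.2 to 59.9 CPM (median 46.2) and reached 0.884 CPM at most elsewhere. The other subunits of this channel were enriched less widely, because the pituitary gland held them too. CACNA2D1, the extracellular alpha2-delta subunit, had medians of 727 CPM in muscle and 110 CPM in the pituitary gland (log2 fold change 2.53, SE 0.30, adjusted p = 3.45e-09). CACNB1, the beta subunit of the muscle channel, had medians of 249 and 71.6 CPM (log2 fold change 1.71, SE 0.24, adjusted p = 7.28e-08). In liver and fat the medians of CACNB1 were 6.05 and 20.2 CPM.

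SCN4B, a sodium channel beta subunit, ranged from 256 to 1157 CPM (median 676) in muscle and reached 7.88 CPM elsewhere, with a log2 fold change over the pituitary gland of 7.33 (SE 0.33, adjusted p = 6.83e-19). SCN2B, which lies next to SCN4B in the RefSeq annotation, was not enriched. Its levels were 0.346 to 9.12 CPM in muscle (median 1.42) and 1.88 to 5.98 CPM in the pituitary gland (median 2.70).

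Of the 12 inward rectifiers, 3 were enriched in muscle. KCNJ11, the pore of the channel that ATP closes, ranged from 85.8 to 230 CPM (median 130) and had a median of 3.56 CPM in the pituitary gland (log2 fold change 5.39, SE 0.30, adjusted p = 2.39e-17). KCNJ12 ranged from 22.0 to 95.5 CPM (median 63.8) and did not exceed 1.74 CPM elsewhere. KCNJ2, like KCNJ12 a strong inward rectifier that steadies the resting voltage of the fibre, had a muscle median of 71.9 CPM and a liver median of 5.46 CPM. The liver values of KCNJ2 fell into separate levels, with cows 1 to 3 at 26.6 to 29.7 CPM, bull 5 at 19.3 CPM and the remaining 6 animals at 3.28 to 5.73 CPM.

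KCNC4, a fast voltage-gated potassium channel, was the muscle subunit with the widest spread between animals. Its muscle level reached 520 CPM in cow 4 and 333 CPM in cow 5, and 25.7 to 85.1 CPM in the other 8 animals. The lowest of these still exceeded every value of the other tissues (at most 12.4 CPM), and the log2 fold change over the pituitary gland was 3.62 (SE 0.37, adjusted p = 2.66e-10). The coefficient of variation of KCNC4 over the 10 muscle libraries was 132%, where the median of the 11 muscle-enriched subunits was 34.1%.

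**Figure D4:**
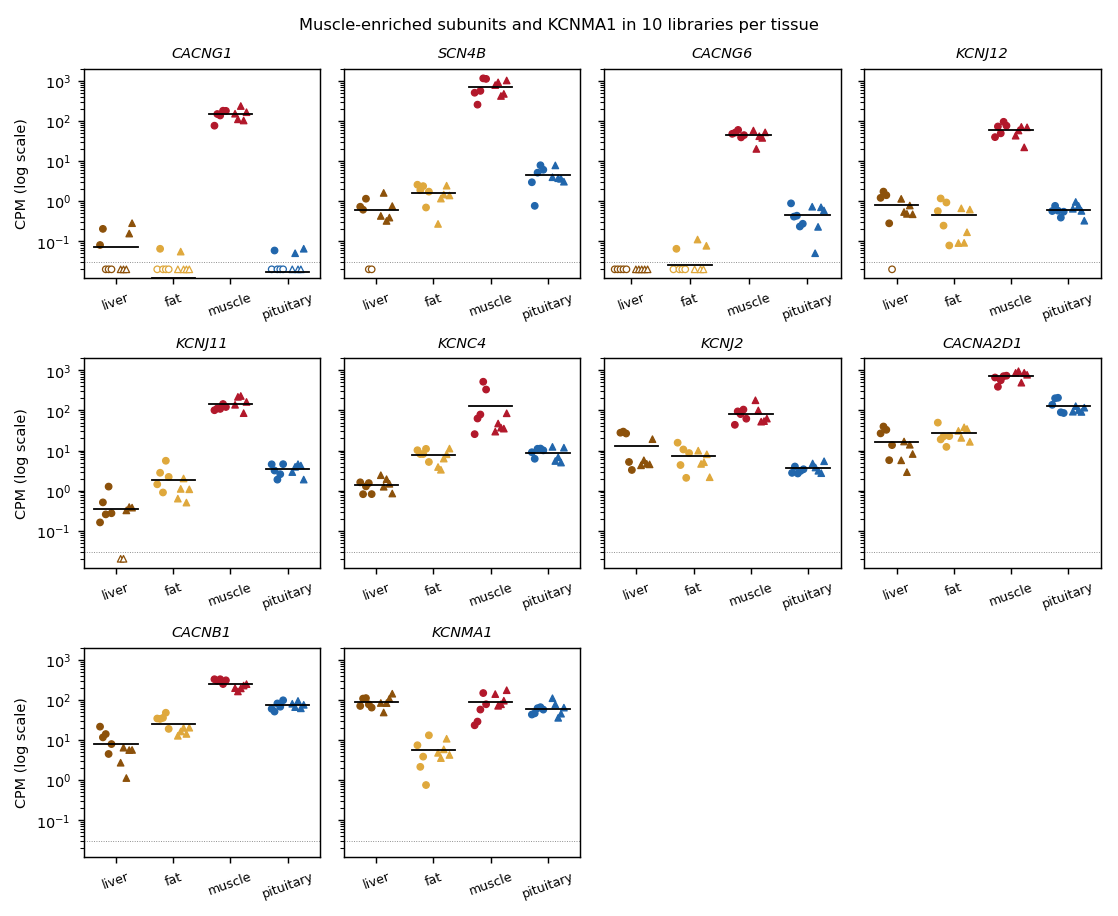
CPM on a log axis in 10 libraries per tissue for 9 muscle-enriched subunits and for KCNMA1, which was enriched in no tissue. Circles are cows, triangles bulls, black bars tissue means (not drawn where they fall under the axis), and open symbols under the dotted line 0 reads. For each of the 9 subunits the lowest muscle library stands above the libraries of the other tissues, and for KCNC4 cows 4 and 5 stand at 520 and 333 CPM.

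Few subunits marked the liver. KCNK5, an acid-sensitive leak channel, ranged from 24.5 to 87.4 CPM (median 41.0) in liver and from 3.20 to 48.7 CPM in fat, with a log2 fold change of 2.11 (SE 0.42, adjusted p = 6.27e-05). The tissues overlapped through the fat of cow 4 (48.7 CPM), and the fat of the other 9 animals lay at or below 14.2 CPM. KCNJ15 ranged from 1.32 to 11.8 CPM (median 3.38) in liver, and its highest values, 11.8 and 10.95 CPM, were those of the liver libraries labelled bull 3 and cow 4. These 2 livers were the most alike of all liver pairs, with a chi-square of 15.0 per degree of freedom over genes against 43.9 for the next pair, which is more than sampling noise. Without both of them, KCNJ15 and KCNK5 were still called. KCNU1, a potassium channel gene known from sperm, ranged from 0 to 4.70 CPM (median 1.25), with 126 liver, 11 fat and 2 muscle reads and no pituitary read. Its liver level was 1.70 to 4.70 CPM in cows 1 to 3 and 0 to 1.79 CPM in the other 7 animals. KCNJ16 was called from 20 liver reads (log2 fold change over fat 1.58, SE 0.70, adjusted p = 0.0277), and the call was lost without the liver library labelled bull 3. It was also lost without cow 2, cow 3 or bull 4, under filterByExpr and with DESeq2 (adjusted p = 0.0794).

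The fat-enriched subunits stood at low levels, with CACNA1A as the exception. CACNA1A, the pore of the P/Q-type calcium channel known from nerve terminals, ranged from 11.1 to 62.6 CPM in fat (median 26.4) and from 6.09 to 22.1 CPM in muscle. Its log2 fold change over muscle was 1.30 (SE 0.29, adjusted p = 0.000181), and the libraries of the tissues overlapped. KCNN4, a calcium-activated channel known from red cells, lymphocytes and macrophages, ranged from 1.15 to 13.1 CPM (median 3.28) and did not exceed 0.778 CPM elsewhere. Cow 2 and bull 2 had its highest fat values, 13.1 and 10.1 CPM, and these were the libraries with the highest summed level of 5 leukocyte genes, 641 and 614 CPM against 182 to 414 CPM in the other 8. What part leukocytes had in this was not tested. In liver, where the same 5 genes summed to 294 to 746 CPM, KCNN4 stayed at or below 0.384 CPM. KCNK7 ranged from 0 to 10.05 CPM in fat (median 1.57), and the highest value was that of the fat library labelled bull 5.

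KCNK9, KCNG1 and KCNF1 were called in fat at low levels. Their fat medians were 0.179, 0.576 and 1.27 CPM, and their adjusted p were 0.0194, 0.0181 and 0.0330. KCNG1 and KCNF1 had their highest value in the fat library labelled bull 5 (2.71 and 4.17 CPM). Without that library neither was called, and 4 of the 6 fat calls remained. DESeq2 called neither KCNF1 nor KCNK9 (adjusted p = 0.0638 and 0.0862). The call of KCNF1 was also lost without cow 4 or any of bulls 1 to 4, that of KCNK9 without cow 5 or bull 4, and that of KCNG1 without bull 4 or bull 5. The fat library labelled bull 5 also had the highest fat sum of 5 smooth muscle and pericyte genes. This was 4377 CPM, against 363 to 2582 CPM in the others. Of these 5 genes, MYH11 and RGS5 were highest in the fat of bull 4. The library of bull 5 likewise had the highest sum of the 4 adipocyte genes, 23990 CPM against 6356 to 13373 CPM. The part of either sum in the result was not tested.

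Of the 34 subunits enriched in no tissue, 15 were high in 2 tissues at once and 5 low in a single one. These patterns were defined after the calls above were seen. The first required each of 2 tissues to exceed both others by at least 1 log2 unit with an adjusted p under 0.05, which 16.7% of the subunits and 11.2% of all tested genes met without being enriched. The second required 1 tissue to lie below each other by the same margin, met by 5.56% of the subunits and 9.30% of all tested genes.

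The BK channel shows how pore and auxiliary subunits differed in their tissues. BK channels open on calcium and voltage together, and KCNMA1 is their pore. KCNMA1 was low in fat alone, with a fat median of 4.52 CPM beside medians of 83.6 CPM in liver, 78.0 CPM in muscle and 59.8 CPM in the pituitary gland. Its log2 fold change of liver over fat was 3.99 (SE 0.32, adjusted p = 4.43e-13), while liver and muscle were not called different (log2 fold change 0.04, SE 0.31, adjusted p = 0.957). KCNMB1, the beta subunit of smooth muscle, was high in fat and muscle (medians 12.2 and 6.01 CPM) and low in liver and the pituitary gland (1.30 and 1.37 CPM). KCNMB2 was high in fat and the pituitary gland (medians 3.54 and 4.21 CPM), with 0 reads in the 10 liver libraries. KCNMB4 was low in the pituitary gland alone (median 4.61 CPM, against 11.5 to 15.9 CPM in the other tissues). No 2 of these 4 subunits thus shared a tissue pattern. KCNMB1 was instead called enriched in fat under filterByExpr and with the percentage of reads outside genes as a term. The same call came without cow 2 or without bull 5. KCNMB3, another BK beta subunit, met no pattern. Its means were 1.26 CPM in liver, 1.16 CPM in fat, 0.599 CPM in muscle and 1.05 CPM in the pituitary gland.

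Further genes joined tissues in pairs. KCNB2, KCNA6 and KCND1 were high in fat and the pituitary gland, and in fat KCNB2 reached a median of 3.59 CPM against 0 CPM in liver. SCN2B, CACNA2D3, CACNA1E and KCNE1L (KCNE5 in the present annotation) were high in muscle and the pituitary gland. CACNA2D3 had medians of 10.7 CPM in muscle and 4.87 CPM in the pituitary gland, and of 0.575 and 0.524 CPM in liver and fat. KCNN2, a small-conductance calcium-activated channel, was high in liver and the pituitary gland (medians 27.3 and 17.2 CPM), together with KCNH1 and KCNJ13. The pattern of KCNJ13 rested on few reads, 24 in the pituitary gland and 13 in liver. KCNK17 and CACNA1F were high in liver and fat. KCNAB1 joined KCNMB1 in fat and muscle. KCNH3 was low in muscle alone (median 0.295 CPM, against 12.9 to 16.0 CPM elsewhere), and KCNS3 in the pituitary gland.

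The evenest levels belonged to 5 genes with at least 1 CPM in every tissue. Among the 18 subunits that reached a mean of 1 CPM in all 4 tissues, CACNB3, KCND1, KCNQ1, KCNMB4 and KCNJ8 had the smallest range of tissue means. CACNB3, a calcium channel beta subunit, had medians of 16.5 CPM in liver, 39.7 CPM in fat, 18.1 CPM in muscle and 54.6 CPM in the pituitary gland, a range of 1.503 log2 units between the lowest and the highest mean. Even this gene differed between tissues, with a log2 fold change of the pituitary gland over liver of 1.54 (SE 0.18, adjusted p = 6.02e-10). KCNJ8, the other pore subunit of ATP-closed channels, was highest in fat (median 24.9 CPM) and lowest in liver (6.17 CPM), a pattern unlike that of KCNJ11. KCNQ1, a delayed rectifier, had a fat median of 3.93 CPM and 0.931 CPM in the pituitary gland. At the other end, KCNE1 and KCNK15 had 2 reads in the 40 libraries, and KCNE2 had 6, so that nothing can be said of their tissues.

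Genes of partner proteins were counted as well. A list of 41 partner genes was set without regard to how they moved, although earlier results of these data were known, and 26 of them had counts. Of these, 8 were enriched in the pituitary gland, 7 in muscle, 3 in fat and none in liver, where 12.0%, 8.13%, 6.93% and 10.1% of all tested genes were, and 8 were enriched in no tissue. The muscle genes included STAC3 (613 to 928 CPM in muscle, at most 5.34 CPM elsewhere) and JSRP1 (241 to 676 CPM, at most 2.54 CPM elsewhere), both known from the coupling of the calcium channel to the calcium store. RYR1, the release channel of that store, ranged from 3719 to 16430 CPM in muscle and reached 101 CPM in 1 pituitary library. RIMS2, a scaffold that holds calcium channels at release sites, ranged from 23.2 to 56.4 CPM in the pituitary gland and did not exceed 0.328 CPM elsewhere. UNC80, an auxiliary subunit of the sodium leak channel, ranged from 76.4 to 250 CPM in the pituitary gland. ABCC8, the sulfonylurea receptor that binds KCNJ11, had medians of 25.7 CPM in the pituitary gland and 12.001 CPM in muscle and was enriched in neither (log2 fold change 0.85, adjusted p = 0.0551).

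Neighbouring genes were also compared. By RefSeq (assembly ARS-UCD2.0), which is not the build of the counts, 5 pairs of subunit genes are next to each other among protein-coding genes. They are SCN4B and SCN2B, KCNJ2 and KCNJ16, KCNIP1 and KCNMB1, KCNK5 and KCNK17, and KCNJ9 and KCNJ10. No pair was enriched in the same tissue, and KCNJ2 (muscle) and KCNJ16 (liver) were enriched in different ones. The other 4 pairs had at least 1 member enriched in no tissue, so they could not match by this rule. Among them, SCN2B, beside the muscle gene SCN4B, was high in muscle and the pituitary gland. KCNK17, beside the liver gene KCNK5, was high in liver and fat. KCNMB1, beside the pituitary gene KCNIP1, was high in fat and muscle. In that annotation 15 of the 90 genes overlap another protein-coding gene, among them SCN8A, SCN9A, CACNA1D, CACNB2, KCNIP1, KCNMB1, KCNMB3 and KCNMB4. Whether the authors' counting used the strand is not stated in the sources used here, so reads of such partners may be mixed.

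Between the sexes, no subunit was called within a single tissue. In each tissue males were compared with females by edgeR's likelihood ratio test (model M1), which called none of the 90 subunits in liver, fat, muscle or the pituitary gland, where 0.175%, 0.114%, 0.517% and 0.745% of all tested genes were called. The liver library labelled bull 3 was counted as male in these fits and in those over the tissues, although its Y-linked genes and XIST went against that. At an unadjusted p under 0.05 the subunits numbered 13, 14, 14 and 8 (14.4%, 15.6%, 15.6% and 8.89%), where 7.45%, 6.88%, 10.99% and 9.27% of all tested genes had such a p. The quasi-likelihood test also called none, and DESeq2 called KCNJ3 in the pituitary gland alone. The call of none did not hold without some animals. In muscle, 4 subunits were called without cow 4 (KCNA5, KCNC1, KCNMA1 and SCN2B) and 1 each without cow 1, cow 5 or bull 2. In the pituitary gland, 2 were called without cow 5, 2 without bull 5 and 1 without cow 4, and in liver 2 were called without cow 4.

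A model over all 40 libraries with sex and tissue (M2) called 5 subunits, all lower in males, where 1.69% of all tested genes were called in either direction. SCN8A, a sodium pore, fell in males by 1.34 on the log2 scale (SE 0.29, adjusted p = 0.00257). CACNB1, the calcium channel beta subunit of muscle, fell by 0.72 (SE 0.17, adjusted p = 0.00861), and SCN9A, another sodium pore, fell by 1.06 (SE 0.28, adjusted p = 0.0209). CACNA1A, the P/Q-type calcium pore, fell by 0.77 (SE 0.21, adjusted p = 0.0289). KCNMB3, a BK beta subunit, fell by 0.71 (SE 0.22, adjusted p = 0.0492). The cows' mean was the higher one in 19 of the 20 values of a gene in a tissue, and the sexes did not overlap in 4 of them. Because the 5 genes were picked by M2 from these same libraries, both counts follow in part from that choice. The share of such values over all genes was not counted.

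M2 takes the 4 libraries of an animal as separate samples. With the animal as a block (limma voom, pairing the 4 tissues of an animal) none of the 5 was called, with adjusted p of 0.239 for SCN8A, 0.347 for CACNB1, 0.469 for SCN9A, 0.239 for CACNA1A and 0.450 for KCNMB3. In that fit 9 subunits and 9.24% of all tested genes had an unadjusted p under 0.05. The quasi-likelihood test called SCN8A and CACNB1. Without cows 1 to 3, SCN8A alone was called, and with the percentage of reads outside genes as a term, CACNB1 alone. The part of that percentage in the result was not tested further.

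The values by animal show where the sexes did not overlap, although M1 called none of these genes within a tissue. In muscle, CACNB1 stood at 328, 299, 328, 249 and 309 CPM in cows 1 to 5 and at 197, 163, 194, 229 and 248 CPM in bulls 1 to 5. The lowest cow lay just above the highest bull. In the pituitary gland the CACNB1 means of the sexes were 71.8 ± 18.4 CPM in cows and 75.7 ± 12.8 CPM in bulls (SD, n = 5 each), the single value of the 20 with the higher mean in bulls.

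SCN8A in the pituitary gland stood at 77.6, 70.9, 86.8, 43.9 and 42.7 CPM in cows 1 to 5. In bulls 1 to 5 it stood at 39.7, 51.1, 28.0, 18.8 and 52.9 CPM. Cows 1 to 3 lay above all bulls, whereas cows 4 and 5 lay among them. SCN9A in the same gland was at 96.6, 71.1, 81.4, 38.6 and 30.6 CPM in cows and at 37.5, 48.9, 26.0, 19.8 and 67.8 CPM in bulls, again with cows 4 and 5 among the bulls. In muscle, SCN9A was lower throughout, at 2.34 to 3.93 CPM in cows and 0.829 to 1.99 CPM in bulls, without overlap.

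CACNA1A separated the sexes in fat, the tissue where it was enriched. Its fat level was 46.3, 27.9, 30.6, 62.6 and 33.7 CPM in cows 1 to 5 and 14.7, 24.8, 22.5, 21.7 and 11.1 CPM in bulls 1 to 5. Every cow lay above every bull, and in the pituitary gland the sexes overlapped widely. KCNMB3 had low counts, with fat levels of 0.901 to 2.03 CPM in cows and 0.498 to 1.09 CPM in bulls, and its call was lost without the fat library labelled bull 5 (adjusted p = 0.0651), without the liver library labelled bull 3 (0.0714), with DESeq2 (0.0530) and with the quasi-likelihood test (0.135). Among all subunits, 65 of 90 had a negative log2 fold change in M2, with a median of -0.22, beside a median of -0.04 over all tested genes.

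**Figure D5:**
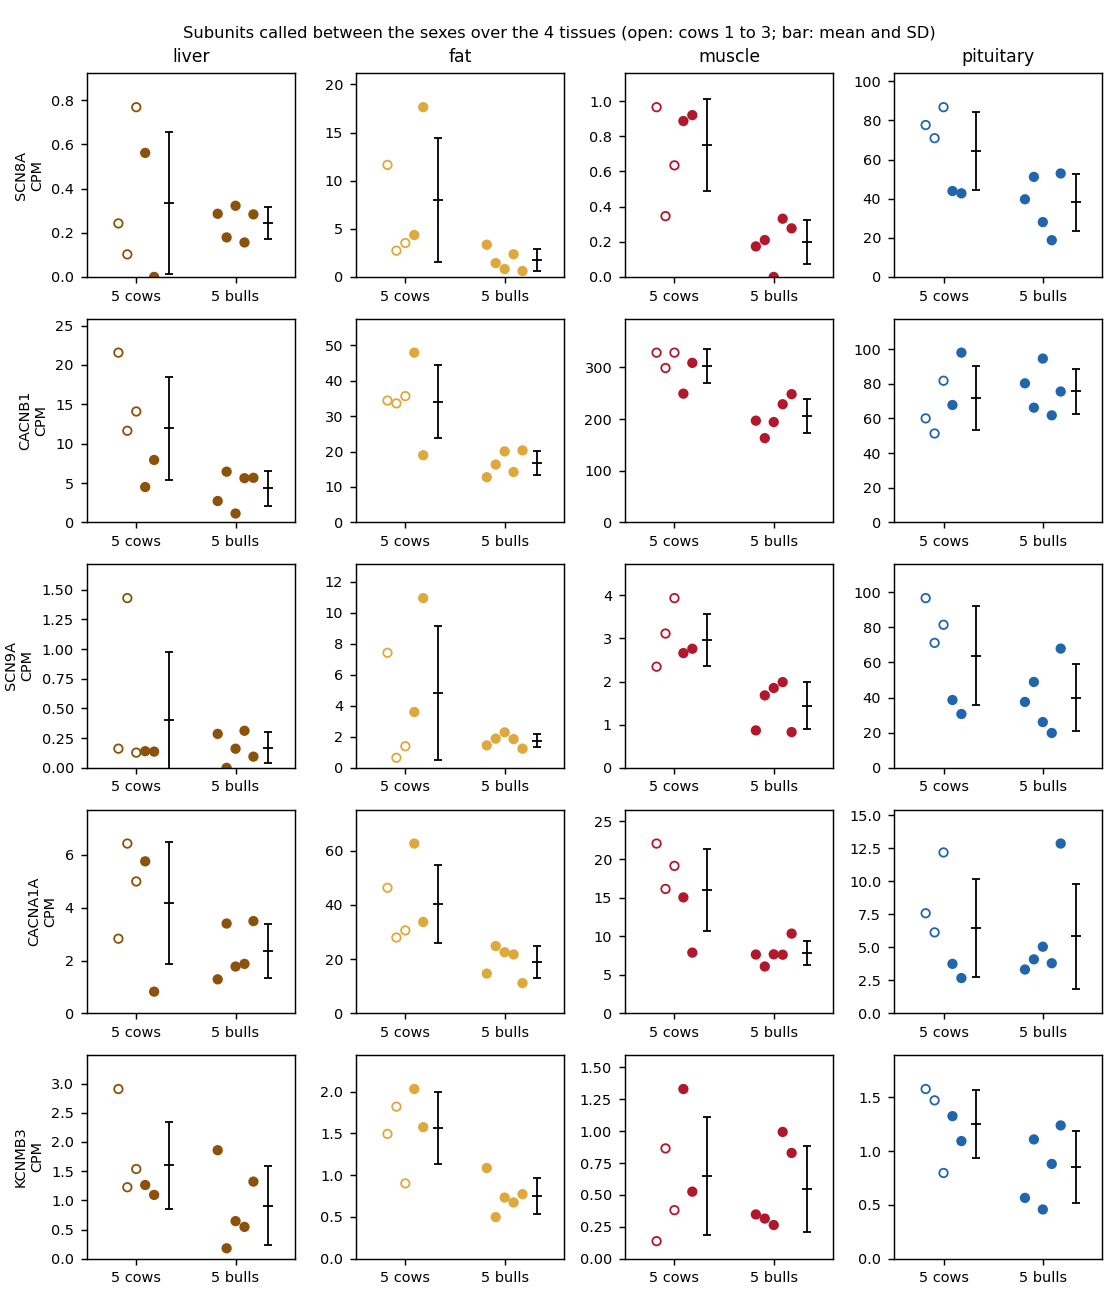
CPM (linear y axis from 0, a scale for each panel) of the 5 subunits called in M2, in 5 cows and 5 bulls of each tissue. Open circles are cows 1 to 3 and bars give the mean and SD of 5 animals (cut at 0). In muscle the lowest cow lies above the highest bull for SCN8A, CACNB1 and SCN9A. For SCN8A these muscle values are near 0, at 0.346 to 0.966 CPM in cows and 0 to 0.331 CPM in bulls.

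No subunit was called for a difference of the sex effect between tissues (interaction, likelihood ratio test), where 0.335% of all tested genes were. At an unadjusted p under 0.05 there were 12 subunits (13.3%, against 8.58% of all tested genes), and the quasi-likelihood test called none either. KCNN2 was called without the fat library labelled bull 5, and CACNB1 without cow 4 or cow 5.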

How the data were processed

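RNA of 40 tissue samples was sequenced, and the authors deposited a table of raw read counts per gene for each library. The submitters' processing notes name Trimmomatic, Bowtie2, TopHat2, SAMtools and HTSeq and the build bosTau7, and strand use in counting is not given in the sources used here. Rows naming no gene (0.114 to 2.69% of reads) were left out. Groups came from the labels. Counts were analysed with edgeR 4.0.16 (R 4.3.3), keeping genes with at least 1 read in 1 library, with TMM factors and Benjamini-Hochberg adjustment over all 13148 genes. Tissues were compared by the quasi-likelihood test (sex and tissue as terms), and sexes by the likelihood ratio test within each tissue (M1), over the tissues (M2) and for their interaction. Alternatives used DESeq2 1.42.0, limma 3.58.1, RLE factors, filterByExpr, a stricter fold and left-out libraries. The ear tag in the labels ties the 4 libraries of an animal, and the consensus correlation within animals was 0.104. Scripts were tested on simulated data. A floor of 3 reads over 10 libraries stood for 0 reads, and counting intervals (95%) cover counting error only.

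The members and lists were chosen with earlier results of these data known. Named were up to 8 enriched subunits per tissue by fold, all those called between sexes, the highest of each class and the 5 evenest. Further subunits were named after their values were seen. Replicates were different animals, each sequenced once per tissue. No sequence was read, because the reference table used here has another build (ARS-UCD2.0). The values of some members are not reported here, although the members stay in the counts.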

Additional observations from a re-analysis of the deposited data

Results flagged for a closer look

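A sample far from the other 4 of its sex and tissue was found for 6 of the 78 groups examined. Chance would give about 3.9 (1 in 20 groups) if the values were normally distributed. The CPM of genes with few reads need not be, so that number is a rough guide only. In the pituitary gland, CACNA1B was at 93.3 CPM in bull 5, against 25.3 to 36.9 CPM in the other bulls. CACNG2 was at 15.9 CPM in cow 3, against 2.87 to 5.30 CPM in the other cows, and KCNK1 at 32.3 CPM in cow 4, against 15.0 to 17.3 CPM. In fat, KCNK7 was at 10.05 CPM in the library labelled bull 5, against 1.01 to 1.72 CPM in the other bulls, and KCNN4 at 10.1 CPM in bull 2, against 2.78 to 4.61 CPM. KCNMB3 was at 2.91 CPM in the liver of cow 1, against 1.09 to 1.54 CPM in the other cows.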

How the results depend on the processing

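Among the 40 named subunits, no called tissue value changed direction under the alternatives run, and 9 lost a call in at least 1 of them (CACNA1A and CACNB1 only where a log2 fold change of 2 was required, KCNH5, KCNK7 and KCNU1 only under filterByExpr). The muscle calls numbered 11 in each fit without 1 animal, the pituitary calls 33 to 36, the liver calls 3 to 5 and the fat calls 3 to 8 (3 without bull 4, with KCNF1, KCNG1 and KCNK9 lost). Requiring a log2 fold change of at least 2 left 2 fat calls, and filterByExpr left 2 liver calls and 27 pituitary calls. With the animal as a replicate block, the tissue calls were 4, 7, 11 and 34 for liver, fat, muscle and pituitary gland. Over the 4 tissues, the 5 sex calls became 2 with the quasi-likelihood test, 0 with the replicate block (voom), 1 with the percentage of reads outside genes as a term, 0 with both, and 1 without cows 1 to 3. Without single animals they numbered 1 (bull 1 or bull 4) to 8 (cow 5 or bull 5). Within tissues, DESeq2 gave 1 pituitary call (KCNJ3), and leaving out the liver libraries labelled bull 3 and cow 4 gave 1 liver call (CACNB1). Without single animals there were 0 to 2 calls in liver, 0 in fat, 0 to 4 in muscle and 0 to 2 in the pituitary gland. The interaction had 1 call without the fat library of bull 5 and 0 to 3 without single animals. The causes were not tested. Members with few reads limit what these libraries can show.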
